A study of Rattus norvegicus with 15 samples.

Results

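The early response to a high x-ray dose was read from 3 RNA libraries of rat brain microvascular endothelial cells (BMECs) collected 12 h after exposure to 20 Gy, set against 3 libraries of unexposed control cells. These are 6 of the 15 libraries of the series, chosen by their titles; the other libraries hold cells 12 h or 24 h after 5 Gy and 24 h after 20 Gy. Poly-A RNA was sequenced, and expression was given for each transcript in FPKM, a fragment count scaled to transcript length and library size. Values were added up under each gene name, and 17895 of 37367 genes, those with a mean of at least 0.5 FPKM over the 15 libraries, were compared. All cells were primary BMECs grown from the cerebral microvessels of littermate Spraque-Dawley rats aged 2 to 3 weeks. They shared the same serum-containing endothelial medium, and other cell types were reduced only by differential adhesion. The exposed cells received 20 Gy from a linear accelerator, while the control cells went through the other handling steps and are labelled as cultured for 12 h. The series text calls the 3 libraries of a group biological replicates, but no label ties a library to a rat or to a separate culture, so p-values measure the spread between these libraries, which may be partly technical.

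X-rays break DNA, and the breaks are sensed by kinases that stabilise the transcription factor p53. p53 then switches on inhibitors of the cell cycle, its own negative regulators and, in some cells, genes of apoptosis. When the cycle stops, genes that E2F and related factors drive for DNA replication and mitosis are no longer induced. In the brain, microvascular endothelium forms the blood-brain barrier and is regarded as a radiation-sensitive tissue.

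The endothelial label was checked against marker genes before the comparison. Of 25 endothelial and barrier markers in the table, 17 were under 1 FPKM in all 6 libraries and 4 of these were listed at 0 throughout. Cdh5, the adhesion molecule of endothelial junctions, was at 0.12, 0.275 and 0.177 FPKM in the control libraries and 0.045, 0.058 and 0.089 FPKM after 20 Gy, and Cldn5, the main claudin of the barrier, did not exceed 0.033 FPKM. Tie1, Emcn, Sox17 and Robo4 were the markers at 0. The endothelial markers summed to 42.9 to 56.5 FPKM in the control libraries and 30.2 to 47.2 FPKM after 20 Gy, while 13 fibroblast markers such as Col1a1 and Fn1 summed to 4777 to 5212 FPKM and 3901 to 4521 FPKM. Mural cell markers summed to 154 to 162 FPKM and 115 to 130 FPKM, with Rgs5 at or near 0. Astrocyte, microglia, oligodendrocyte and neuron markers summed to 624 to 853, 26.3 to 37.0, 22.2 to 24.2 and 61.0 to 74.9 FPKM in the control libraries, and to 516 to 717, 21.7 to 24.8, 25.2 to 28.1 and 34.2 to 46.9 FPKM after 20 Gy, with Gfap at most 0.182 FPKM and Aqp4 and Ptprc listed at 0 in all 6. Of 10 astrocyte markers, 4 were under 1 FPKM in all 6 libraries. The 6 with a mean of at least 0.5 FPKM over the 15 libraries were Slc1a2, Slc1a3, S100b, Aldh1l1, Gja1 and Aldoc. The marker levels therefore did not bear out the endothelial label, and the cells are called by the name the labels give them. The part of the cell mixture in the results below was not tested, and in bulk RNA fewer cells of a type and less RNA per cell cannot be told apart.

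At 12 h after 20 Gy, 1528 genes (8.54% of those tested) passed the threshold, an adjusted p below 0.05 in limma, a linear model with moderated variances, together with a fold change of at least 1.5 on the log2(FPKM + 1) scale. Of these, 876 genes (4.90%) were higher and 652 (3.64%) lower than in the control cells. Genes of p53-dependent arrest led the increases, and genes of cholesterol synthesis and DNA replication had the lowest list medians. Most changes were moderate: 234 genes rose and 199 fell at least 2-fold, and 31 rose and 16 fell at least 4-fold. The median log2 difference over all genes was 0.01. The 3 exposed libraries did not overlap with the 3 control libraries in 6594 genes (36.8%), of which 1511 passed the threshold. Of the genes called, 467 lay at assembled loci without a gene name. All log2 differences below are 20 Gy at 12 h minus control on the log2(FPKM + 1) scale unless stated otherwise, which understates the change of genes with a low FPKM. Across all genes, log2 levels correlated at 0.971 to 0.972 between control libraries, 0.970 to 0.973 between exposed libraries and 0.944 to 0.958 between the groups, a correlation over genes that are not independent replicates. Depth estimated from the steps between low FPKM values was alike, with 6.23 to 6.73 gigabases aligned per control library and 6.46 to 6.75 gigabases per exposed library.

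**Figure D1:**
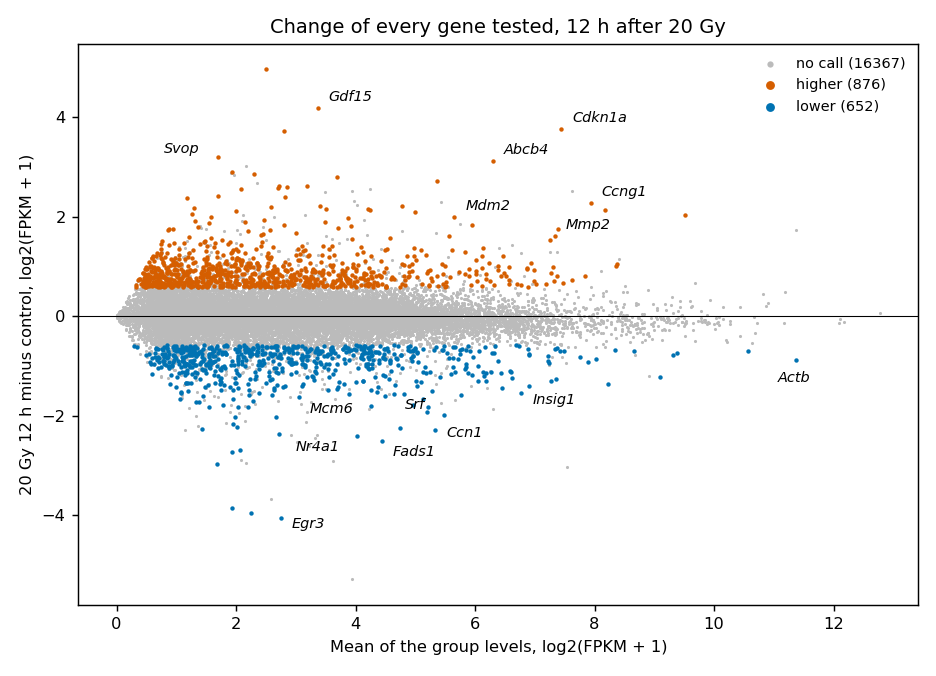
Each point is 1 of the 17895 genes tested, placed by the mean of its control and 20 Gy 12 h levels in log2(FPKM + 1) on the x axis and by the log2 difference on the y axis. The 876 genes called higher are orange and the 652 called lower are blue, with Gdf15 and Cdkn1a near the top and Egr3 near the bottom.

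Genes of the p53 arrest and feedback circuit rose together. Of 16 members tested, 12 rose and Plk3 alone fell, and the list had a median log2 difference of 1.41 against 0.01 over all genes. In 13 of the 16 all exposed libraries lay above all controls, against 19.8% of all genes. The list was drawn up with earlier results of these libraries known. Cdkn1a, which encodes the p21 inhibitor of cyclin-dependent kinases, was at 52.1, 31.6 and 56.8 FPKM in the control libraries and 572, 632 and 689 FPKM after 20 Gy. No exposed library came near the control range, and the group means differed 13.5-fold (a log2 difference of 3.76 with a standard error (SE) of 0.33 and an adjusted p of 1.22e-05). In Rnor_6.0, the build of the table, Cdkn1a lies at chr20:6351458-6358864 on the plus strand. Gdf15, a stress-induced secreted factor of the TGF-beta superfamily, stood at 1.25, 1.22 and 1.82 FPKM in the control libraries and 41.3, 48.1 and 39.5 FPKM after 20 Gy. Its groups were far apart, at 30.1-fold (a log2 difference of 4.18 with a standard error (SE) of 0.14 and an adjusted p of 4.78e-09). Ccng1, the p53-induced cyclin G1, measured 112, 103 and 116 FPKM in the control libraries and 528, 541 and 541 FPKM after 20 Gy. The replicates of each group almost coincided, and the log2 difference was 2.27 with an SE of 0.077 and an adjusted p of 4.78e-09.

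Mdm2, the ubiquitin ligase that returns p53 to its resting level, measured 22.7, 23.2 and 26.7 FPKM in the control libraries and 112, 97.6 and 89.8 FPKM after exposure. Its lowest exposed library was above its highest control library (log2 difference 2.00, SE 0.17, adjusted p = 8.03e-06). Plk2, a polo-like kinase induced by damage, rose by 2.15 on the log2 scale, from 4.4 ± 0.291 to 22.9 ± 0.82 FPKM (mean ± SD, n = 3). Further members that rose were Tp53inp1 (1.83), Phlda3 (1.75), Psrc1 (1.49), Zmat3 (1.34), Sesn2 (1.22), Rps27l (1.00) and Btg2 (0.83), by log2 difference. Among them, Sesn2 restrains TOR signalling, Phlda3 restrains AKT and Btg2 is an antiproliferative gene. Plk3 was at 12.2, 14.3 and 16.3 FPKM in the control libraries and 8.33, 8.46 and 8.66 FPKM after 20 Gy, a fall without overlap (log2 difference -0.68, adjusted p = 0.0326) whose call was lost in 5 of 6 fits that left out a library. Ppm1d, the phosphatase that turns the damage signal off, had a log2 difference of 0.35 and did not reach the fold threshold, and Sesn1 had 0.19 and did not pass.

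A p53 element is a pair of decamers that p53 binds. Promoters were read from RefSeq, whose GRCr8 build is newer than that of the table, as the 250 bases before each gene's start, and 13 of the 16 arrest genes had one. A p53 element with both core tetramers whole, up to 2 mismatches outside them and a spacer of up to 13 bases, on either strand, was matched in 3 of the 13 (23.1%), Cdkn1a, Ccng1 and Sesn1, against 1.60% of 33469 promoters. The windows of Cdkn1a (chr20:7150701-7150780 on the plus strand) and Ccng1 (chr10:25685072-25685126 on the minus strand) are shown because these genes carried the clearest rises, and that of Aen (chr1:142224473-142224532 on the plus strand) because it was the only match among 9 promoters of the pro-death genes. Capitals mark the match, and a match is a description of letters, not a site shown to be bound.
Cdkn1a: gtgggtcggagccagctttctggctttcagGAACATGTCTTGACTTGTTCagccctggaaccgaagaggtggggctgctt
Ccng1: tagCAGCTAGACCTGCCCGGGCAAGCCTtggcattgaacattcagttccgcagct
Aen: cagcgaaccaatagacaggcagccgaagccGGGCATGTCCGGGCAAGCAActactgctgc

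Pro-death targets of p53 moved less far. Of 10 members tested, 6 rose and none fell, against 4.90% and 3.64% of all genes, with a median log2 difference of 0.85. When only annotated transcripts were summed, 2 rose. Fas, a death receptor, was at 5.79, 6.72 and 6.98 FPKM in the control libraries and 18.2, 19.96 and 18.8 FPKM after 20 Gy, without overlap (log2 difference 1.42, SE 0.087, adjusted p = 5.29e-07). Eda2r, another receptor of the tumour necrosis factor receptor family, went from 1.73, 2.15 and 1.14 to 17.3, 12.3 and 16.5 FPKM, a 9.18-fold difference of means. Bax, whose protein opens the outer mitochondrial membrane, was at 47.02, 44.7 and 50.8 and 83.4, 92.4 and 82.7 FPKM, so that the exposed libraries were closer to the controls but still all above them (log2 difference 0.85, adjusted p = 0.00016). Ei24 (1.00) and Pidd1 (0.85) also rose. Their differences changed sign to -0.86 and -0.77, with adjusted p of 0.438 and 0.496, when only annotated transcripts were summed. Pmaip1, which encodes Noxa, overlapped between groups at 11.2, 15.3 and 16.01 and 22.7, 19.9 and 11.6 FPKM. Apaf1 (0.24), Bid (-0.13) and Tnfrsf1a (-0.19) did not pass. Aen, an exonuclease gene, shares its locus with Isg20 and its values were erratic, at 0.514, 1.65 and 0.012 FPKM and 4.88, 36.98 and 39.9 FPKM. The whole locus had a mean 17.8 FPKM in the control group and 61.98 after exposure, a log2 difference of 1.74 with an adjusted p of 3.89e-06.

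No repair gene under p53 rose past the threshold. Of 9 tested, none rose in limma and 1 fell, against 4.90% and 3.64% of all genes, and the median log2 difference was 0.20. In 7 the log2 difference was above 0. Wholly above the controls lay 3 and wholly below them 1, against 19.8% and 17.0% of all genes. An unadjusted p below 0.05 in limma was found in 4, against 29.9%. Polh, a translesion polymerase (0.47, adjusted p = 0.0419), and Rrm2b, a ribonucleotide reductase subunit (0.50, adjusted p = 0.252), had the largest positive differences. Neither passed, and Polh missed only the fold threshold. The nucleotide excision repair genes Xpc (0.19) and Ddb2 (-0.17) and the stress gene Gadd45a (0.25) did not pass.

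**Figure D2:**
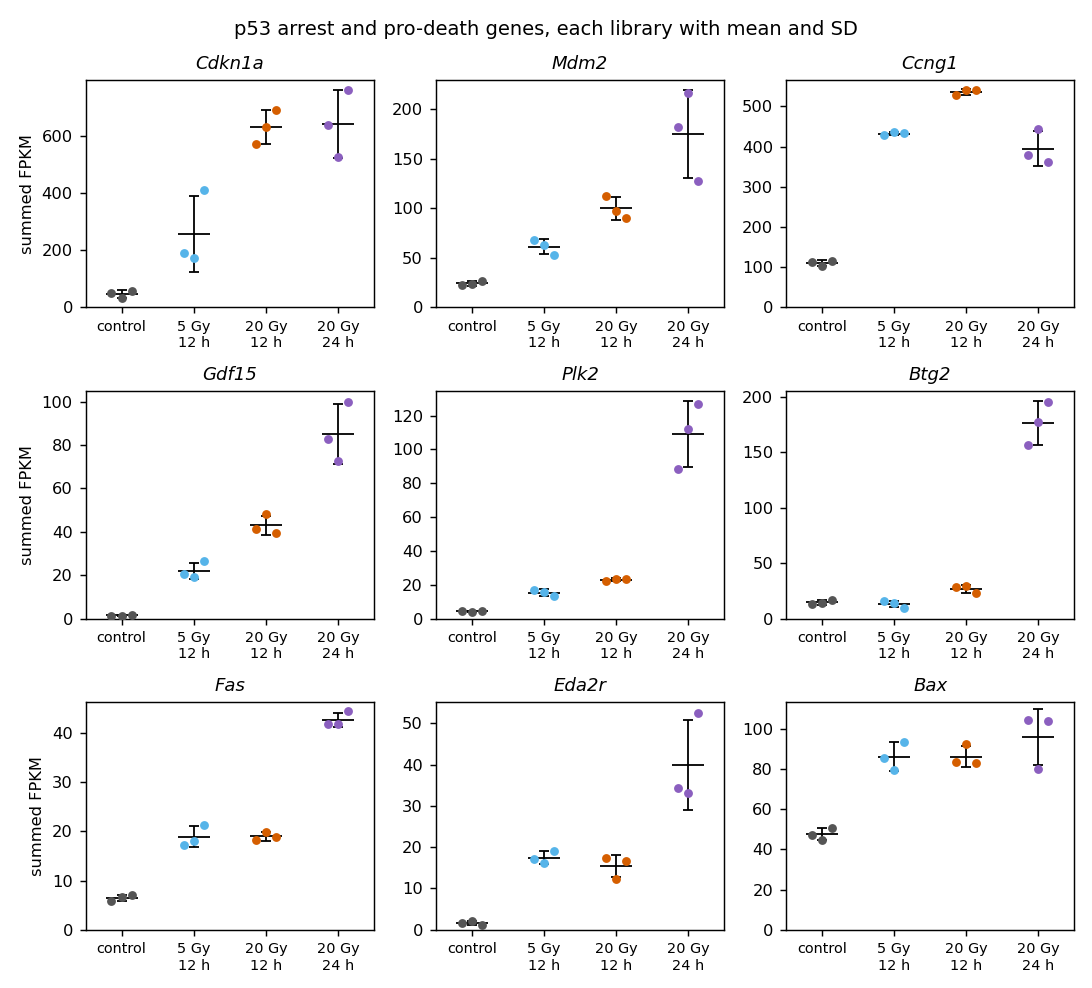
Summed FPKM of 9 p53 arrest and pro-death genes on a linear axis from 0, with 1 point per library and a bar for the mean ± SD of 3 libraries. In every panel the 20 Gy 12 h points lie above the control points, and for Btg2 they also lie above the 5 Gy 12 h points.

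DNA replication genes fell almost as a block. Of 34 tested, 27 fell and none rose, with a median log2 difference of -0.95, and in 32 of them all 3 exposed libraries lay below all 3 control libraries, against 17.0% of all genes. Without the third 20 Gy 12 h library 23 fell, and 15 fell when only annotated transcripts were summed. Mcm6, a subunit of the replicative helicase, was at 28.4, 35.3 and 40.4 FPKM in the control libraries and 9.67, 10.3 and 7.59 FPKM after 20 Gy. Its exposed libraries formed a narrow low group (a log2 difference of -1.81 with a standard error (SE) of 0.19 and an adjusted p of 4.56e-05). The helicase subunits Mcm2, Mcm3, Mcm4, Mcm5 and Mcm7 fell by log2 differences between -0.97 and -1.57. Pcna, the sliding clamp of the polymerases, was at 90.8, 118 and 131 and 48.3, 53.7 and 50.7 FPKM, all exposed libraries well under the controls (log2 difference -1.12, adjusted p = 3.48e-05). The origin licensing factor Cdc6 (-1.72), cyclin E1 (Ccne1, -1.58), the maintenance methylation factor Uhrf1 (-1.46), the replication ligase Lig1 (-1.13) and the polymerase subunit Pole (-1.12) fell as well. Tyms, thymidylate synthase, went the other way, at 25.3, 27.4 and 32.7 and 43.5, 42.01 and 39.2 FPKM, and did not reach the fold threshold (log2 difference 0.54, adjusted p = 0.00103).

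Mitotic genes were lower by a smaller amount. Of 38 G2/M and mitosis genes, 29 had all exposed libraries below the controls, against 17.0% of all genes. By the threshold 14 fell and none rose, with a median log2 difference of -0.65. The count was not stable, at 4 without the third 20 Gy 12 h library, 6 without the second control library, 5 without the third control library and at most 12 when any other library was left out. It was 4 when only annotated transcripts were summed. Cdc20, the activator of the anaphase-promoting complex, was at 27.1, 33.9 and 37.96 FPKM in the control libraries and 15.3, 16.8 and 9.91 FPKM after 20 Gy. The third exposed library was the lowest, and the groups did not overlap (a log2 difference of -1.20 with a standard error (SE) of 0.19 and an adjusted p of 0.00105). Ccnb1, cyclin B1, was at 21.6, 29.02 and 31.1 and 16.3, 16.9 and 10.5 FPKM, again lowest in the third exposed library (log2 difference -0.87, adjusted p = 0.0367). The ubiquitin-conjugating enzyme Ube2c (-0.98), the kinase Plk1 (-0.94) and cyclin A2 (Ccna2, -0.93) fell. Mki67 (-0.57), Top2a (-0.49) and Cenpf (-0.50), which mark cycling cells, were lower by less than the fold threshold and so did not pass.

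Few break repair and checkpoint genes passed, although many were lower. Of 28 tested, 22 had a log2 difference below 0, and 15 lay wholly below the controls, against 17.0% of all genes. An unadjusted p below 0.05 in limma was found in 15, against 29.9%. Past the threshold 1 rose and 3 fell, against 4.90% and 3.64% of all genes. Lig4, the ligase of end joining, rose from 7.72, 6.98 and 5.49 to 15.7, 11.4 and 12.6 FPKM (log2 difference 0.88, adjusted p = 0.00794). The Fanconi anaemia gene Fanca (-0.75) and the histone variant gene H2afx (-0.68) were among those that fell. The damage kinases Atm (-0.00) and Atr (-0.05) did not pass, nor did Prkdc (-0.13), the kinase of end joining, and the list median was -0.33. Of 12 lamina and senescence-linked genes, Lmnb1 (-0.72), Hmgb2 (-0.63) and Cdkn2c (-0.73) fell, against 3.64% of all genes. Without the third 20 Gy 12 h library 1 of these was left. Cdkn2a, the source of p16 and ARF, was at 34.5 ± 11.2 and 30.3 ± 5.06 FPKM (mean ± SD, n = 3) with a log2 difference of -0.15.

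The motifs named for these programs were searched in the same 250-base windows on both strands. The E2F motif TTCCCGC stood in 7 of the 27 promoters found for the 34 replication genes (25.9%) and in 3.36% of all promoters. The cell cycle homology region (CHR) motif TTTGAA stood in 14 of the 32 found for the 38 G2/M genes (43.8%) and in 16.2% of all, and CCAAT in 24 of 32 (75.0%) and 34.0%. CCAAT was also frequent in promoters of the replication genes (59.3%) and of the p53 arrest genes (61.5%). Mcm5 (chr19:13488770-13488812 on the plus strand) and Rrm1 (chr1:166235679-166235757 on the plus strand), which encodes a ribonucleotide reductase subunit, show the E2F motif in capitals, and Cdc20 (chr5:137255808-137255887 on the minus strand) and Mki67 (chr1:199952659-199952738 on the minus strand) show CHR. They were chosen because Mcm5 and Cdc20 fell, and Rrm1 and Mki67 differed between the doses.
Mcm5: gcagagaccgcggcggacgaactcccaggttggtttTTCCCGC
Rrm1: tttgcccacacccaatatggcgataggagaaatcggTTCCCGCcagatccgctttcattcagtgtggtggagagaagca
Cdc20: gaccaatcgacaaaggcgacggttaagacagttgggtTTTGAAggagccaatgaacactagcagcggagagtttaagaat
Mki67: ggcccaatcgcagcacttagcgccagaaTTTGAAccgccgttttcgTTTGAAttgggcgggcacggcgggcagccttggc

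Genes of cholesterol and fatty acid synthesis were lower throughout the pathway. Of 24 members tested, 21 fell and none rose, and the median log2 difference was -1.07. In 23 the exposed libraries were all below the controls, against 17.0% of all genes. Leaving out any 1 library left at least 20 that fell, and summing only annotated transcripts left 11. Insig1, the sterol-regulated anchor of SREBP processing, was at 156, 199 and 195 FPKM in the control libraries and 85.4, 63.98 and 43.03 FPKM after 20 Gy. Every exposed library was far under the lowest control (a log2 difference of -1.54 with a standard error (SE) of 0.27 and an adjusted p of 0.00223). Enzymes from early and late steps of the pathway fell, among them Hmgcs1 (-1.20), Mvd (-1.42), Fdps (-1.30), Fdft1 (-1.02), Sqle (-1.30), Lss (-1.05), Cyp51 (-1.44) and Nsdhl (-1.32) by log2 difference. The fatty acid enzymes Scd (-1.51), Fasn (-1.19) and Acaca (-0.68) fell. The difference of Acaca changed sign when only annotated transcripts were summed. Srebf2, the master regulator of the pathway, was at 51.7, 55.3 and 46.9 and 42.6, 39.4 and 36.8 FPKM, which did not overlap but missed the fold threshold (log2 difference -0.37, adjusted p = 0.0163).

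The desaturases of polyunsaturated fatty acids had larger log2 differences than any member of that list. Fads1 was at 43.9, 58.7 and 49.1 FPKM in the control libraries and 9.71, 8.85 and 5.8 FPKM after 20 Gy (a log2 difference of -2.52 with a standard error (SE) of 0.2 and an adjusted p of 5.79e-06). Fads2, its neighbour in the pathway, was at 71.8, 102 and 86.9 and 29.3, 21.96 and 14.4 FPKM (log2 difference -1.98). Acss2, which makes acetyl-CoA from acetate, was at 54.8, 77.9 and 73.9 and 21.1, 19.1 and 15.9 FPKM (log2 difference -1.82). In all 3 genes the groups were separated by a wide gap. In the promoter windows, CCAAT stood in 13 of the 16 found for the 24 listed genes (81.2%), and the sterol regulatory motif TCACNCCAC was found in none of the 16 and in 0.974% of all promoters.

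Immediate early genes, the first transcripts that growth factors and serum induce, moved both ways, with more falls than rises. Of 27 tested, 11 fell and Ier5 alone rose, against 3.64% and 4.90% of all genes, with a median of -0.35. The log2 difference was below 0 in 17 and above 0 in 10. Wholly below the controls lay 13 and wholly above them 6, against 17.0% and 19.8% of all genes. Leaving out the third 20 Gy 12 h library left 8 that fell. Egr3, a zinc finger factor, had the largest fall among genes named by rule, with 21.8, 25.5 and 29.9 FPKM in the control libraries and 1.45, 0.301 and 0.305 FPKM after 20 Gy. It was close to absent in each exposed library (a log2 difference of -4.05 with a standard error (SE) of 0.21 and an adjusted p of 1.71e-07). Egr2 went from 4.68, 4.65 and 5.36 to 0.422, 0.216 and 0.056 FPKM (log2 difference -2.27) and the nuclear receptor Nr4a1 from 33.6, 36.6 and 38.6 to 8.08, 5.71 and 4.66 FPKM (log2 difference -2.41). Fos, an AP-1 subunit, was at 9.55, 9.75 and 11.4 and 5.32, 2.85 and 2.09 FPKM (log2 difference -1.41, adjusted p = 0.00182), and its partner Jun fell by a log2 difference of -1.04. Dusp2 (-2.70) and Dusp5 (-0.98), phosphatases that limit MAP kinase signals, fell. Egr1 was at 56.7, 62.4 and 59.4 FPKM in the control libraries but at 45.1, 13.7 and 5.02 FPKM after 20 Gy. The exposed libraries spread widely, and the call (adjusted p = 0.0348) was lost in 5 of 6 fits that left out a library. Nr4a2 (0.13), Nr4a3 (0.08) and Myc (0.09) did not pass.

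Contractile genes and other targets of serum response factor (SRF) were lower in the same libraries. Of 15 tested, 9 fell and none rose, against 3.64% and 4.90% of all genes, with a median of -0.64. In 10 all exposed libraries lay below all controls, against 17.0% of all genes. Srf itself was at 42.5, 42.2 and 41.4 FPKM in the control libraries and 14.3, 11.2 and 15.2 FPKM after 20 Gy, with tight control values and a gap far wider than either spread (log2 difference -1.57, adjusted p = 0.000187). Ccn1, a matricellular signalling protein, was at 87.4, 72.9 and 102 and 16.3, 23.01 and 12.99 FPKM (a log2 difference of -2.28 with a standard error (SE) of 0.28 and an adjusted p of 0.000183). Actb, cytoplasmic beta-actin, was at 3585 ± 359 and 1942 ± 131 FPKM (mean ± SD, n = 3), a log2 difference of -0.88. Vinculin (Vcl, -0.67), zyxin (Zyx, -0.70) and tropomyosin genes Tpm1 (-0.60) and Tpm4 (-0.82) fell too, with the calls of the tropomyosin genes lost in 4 and 5 of 6 fits that left out a library, while the smooth muscle gene Tagln (0.14) did not pass. The CArG box that SRF binds was found in 4 of the 17 promoters available for the 27 immediate early genes (23.5%) and in 1.5% of all. Promoters of the contractile and SRF target list were not searched. Egr2 (chr20:21054480-21054559 on the minus strand) and Dusp5 (chr1:262543662-262543741 on the plus strand) are shown as members that fell, with CArG boxes in capitals.
Egr2: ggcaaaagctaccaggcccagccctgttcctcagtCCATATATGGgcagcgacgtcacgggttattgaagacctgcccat
Dusp5: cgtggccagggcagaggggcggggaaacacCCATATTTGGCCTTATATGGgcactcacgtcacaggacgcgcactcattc

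**Figure D3:**
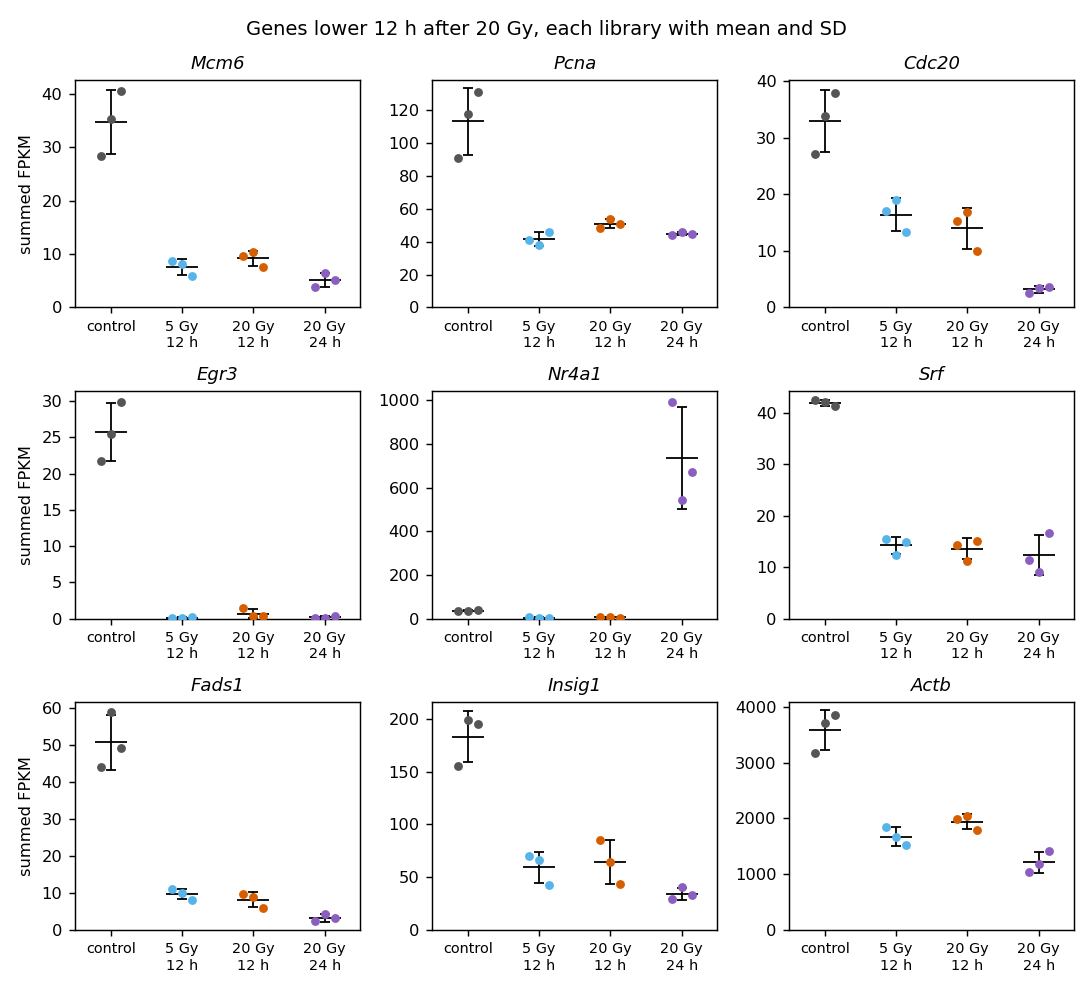
Summed FPKM of 9 genes that fell, on a linear axis from 0, with 1 point per library and a bar for the mean ± SD of 3 libraries. The 20 Gy 12 h points lie below the control points in every panel, and Nr4a1 alone is far above the control level at 24 h.

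Some inflammatory and interferon genes rose, where 4.90% of all genes rose and 3.64% fell. Of 17 NF-kB and inflammation genes tested, Cebpd, Lif, Cebpb and Csf1 rose and Ccl2 fell, with a median of 0.02. Cebpb lost its call whichever library was left out, and 2 rose without the first 20 Gy 12 h or the third control library. Cebpd, a transcription factor of the acute phase, was at 39.04, 40.2 and 48.98 FPKM in the control libraries and 119.8, 132 and 85.7 FPKM after 20 Gy (log2 difference 1.36, adjusted p = 0.000334). Lif, a cytokine of the IL6 family, went from 0.31, 0.652 and 0.556 to 2.73, 2.64 and 2.43 FPKM, without overlap (log2 difference 1.26). Ccl2, a monocyte chemokine, was at 1.59, 2.1 and 2.23 and 0.205, 0 and 0.269 FPKM. Nfkbia, the classical NF-kB target, had a log2 difference of -0.34 and Icam1, an adhesion molecule, of 0.02, and neither passed. Il6, Il1b, Tnf, Sele and Vcam1 were under the expression minimum. Irf7 (1.03), Isg15 (0.85) and Gbp2 (0.71) rose among 11 interferon response genes, and none fell. These 3 kept their calls whichever library was left out. Of the 11, 6 lay wholly above and none wholly below the controls, against 19.8% and 17.0% of all genes. Tap1, a peptide transporter of antigen presentation, had a log2 difference of 1.34 and shares its locus with an unnamed gene model. The whole locus had a mean 21.8 FPKM in the control group and 35.5 after exposure, a log2 difference of 0.68 with an adjusted p of 0.000817. Of 9 genes of MHC class I antigen processing tested, Tap1 among them, 1 rose and none fell. Their median log2 difference was 0.05, with 6 above 0 and 3 below.

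Signalling ligands, receptors and matrix genes changed singly, where 4.90% of all genes rose and 3.64% fell. Gdf6, a BMP-family ligand, was at 3.71, 3.93 and 3.94 FPKM in the control libraries and 31.5, 33.4 and 33.7 FPKM after 20 Gy, with almost no spread in either group (a log2 difference of 2.80 with a standard error (SE) of 0.12 and an adjusted p of 3.98e-08). Inhba rose (0.64) and Tgfb1 fell (-0.89) among 17 TGF-beta and BMP genes. Of 17 Wnt and Frizzled genes, the receptor Fzd7 and the ligand Wnt2 fell, and Wnt2 lost its call in 3 of 6 fits that left out a library. Fzd7 was at 60.6, 63.8 and 47.8 and 13.1, 11.03 and 9.82 FPKM (a log2 difference of -2.24 with a standard error (SE) of 0.15 and an adjusted p of 1.6e-06). Mmp2, a gelatinase that degrades basement membrane collagen, was at 92.1, 90.2 and 91.5 and 269.6, 288 and 284 FPKM, with every exposed library far above the controls (a log2 difference of 1.61 with a standard error (SE) of 0.1 and an adjusted p of 6.42e-07). Tissue plasminogen activator (Plat) fell by a log2 difference of -0.79. Of 20 matrix and protease genes, 1 rose and 2 fell, and the median was -0.18.

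Of 9 vasoactive genes 3 passed and of 13 calcium entry genes 1 passed, against 8.54% of all genes. Edn1, the vasoconstrictor endothelin 1, was at 2.69, 2.72 and 3.88 FPKM in the control libraries and 6.15, 6.33 and 6.14 FPKM after 20 Gy (log2 difference 0.83, adjusted p = 0.032). The angiotensin receptor Agtr1a (0.67) and the calcitonin receptor-like receptor Calcrl (0.91) also rose among 9 vasoactive genes, and none of the 3 passed without the second or the third 20 Gy 12 h library or the first or the second control library. Calcrl changed sign when only its most abundant transcript was read. Orai2, a channel subunit of store-operated calcium entry, was at 3.34, 3.32 and 3.13 and 5.09, 5.4 and 6.44 FPKM, all exposed libraries above the controls (log2 difference 0.63, SE 0.1, adjusted p = 0.00143). It was the calcium entry gene that passed, and without the third 20 Gy 12 h library its log2 difference was 0.55, under the fold threshold. An unadjusted p below 0.05 in limma was found in 1 of the 13, against 29.9% of all genes. Orai1 (-0.12), Orai3 (0.17), Stim1 (0.02) and Stim2 (0.06) did not pass. Of 38 genes that the study names, 23 rose and 5 fell, a list the study chose on these samples and so not independent evidence. Without the third 20 Gy 12 h library, 17 rose.

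Heat shock genes made no call at this time, while genes of the integrated stress response moved both ways. Of 23 heat shock genes, none passed in limma and 6 had an unadjusted p below 0.05, against 29.9% of all genes. Of these 23, 2 lay wholly above and 7 wholly below the controls, against 19.8% and 17.0% of all genes, and the median log2 difference was 0.00. The inducible chaperone Hspa1b was at 11.1, 11.03 and 9.15 and 13.6, 14.8 and 14.4 FPKM (log2 difference 0.42, unadjusted p = 0.00994). In the list of the endoplasmic reticulum and integrated stress response, 2 of 23 rose and 3 fell, against 4.90% and 3.64% of all genes. Ddit4 (1.13) and Ddit3 (0.85) were higher, and Atf4 (-0.96), Ppp1r15a (-0.95) and Phgdh (-0.65) lower. Ddit3 lost its call in 5 of 6 fits that left out a library. In that list 11 members lay wholly above and 6 wholly below the controls, and 13 had an unadjusted p below 0.05. Hmox1, heme oxygenase 1, fell from 139, 138 and 150 to 60.4, 70.2 and 65.6 FPKM, without overlap (log2 difference -1.11, adjusted p = 2.21e-05), while Nqo1 (0.33) and Gclm (0.21), targets of NRF2, did not pass. Clk1, a kinase of splicing factors that is sensitive to temperature, rose from 18.4, 21.2 and 21.95 to 49.5, 56.2 and 53.9 FPKM (log2 difference 1.33). It was the only riser of 6 genes of temperature-responsive RNA processing, of which 5 had a log2 difference below 0, 4 lay wholly below the controls and 1, Rbm3 (-0.90), fell (median -0.45). Rbm3 changed sign when only annotated transcripts were summed.

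**Figure D4:**
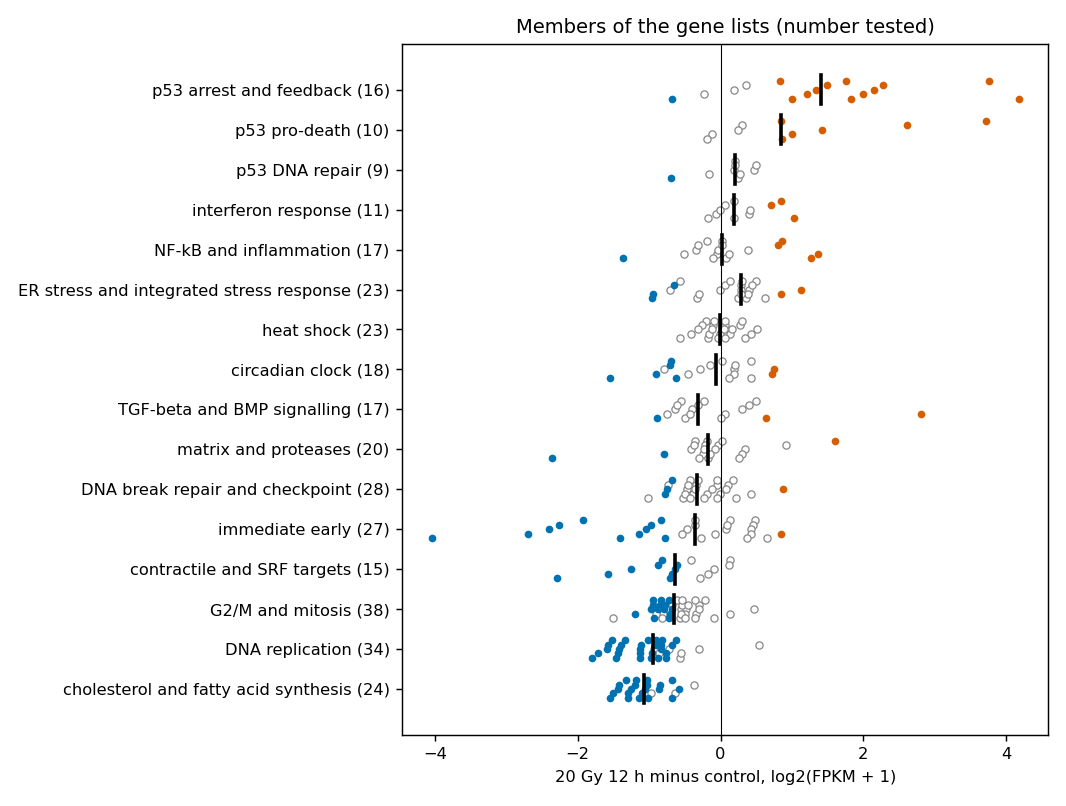
Log2 difference of each tested member (points) of 16 gene lists, with orange for genes that rose, blue for genes that fell, open points for no call and a bar at the list median. The medians run from 1.41 for p53 arrest and feedback to -1.07 for cholesterol and fatty acid synthesis.

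Several of the largest rises lay outside these lists. Abcb4, a phospholipid transporter of the ABC family, was at 28.4, 26.03 and 22.2 FPKM in the control libraries and 175, 313 and 217 FPKM after 20 Gy, a 9.2-fold difference of means (log2 difference 3.12). Its most abundant single transcript had a log2 difference of -0.67 with an adjusted p of 0.826, so the rise of the sum lay in its other transcripts. Plcd4, a phospholipase C, went from 1.06, 0.755 and 0.652 to 9.76, 11.8 and 15.8 FPKM (log2 difference 2.86) and Trim7, a ubiquitin ligase, from 0.572, 0.612 and 1.07 to 7.996, 9.55 and 10.1 FPKM (log2 difference 2.55). Both groups of each gene were clearly apart. Svop, a synaptic vesicle protein gene, was near 0 in the control libraries at 0.04, 0.027 and 0.114 FPKM and reached 6.58, 9.67 and 10.5 FPKM, and Pinlyp was listed at 0 in all controls and reached 4.47, 4.16 and 3.87 FPKM. Inka2 (2.41) and Hapln3 (2.39) rose with them. Adam8, a metalloproteinase gene, was listed at 0 in all controls and at 21.8, 30.01 and 41.3 FPKM after 20 Gy, but it shares a locus with Tubgcp2. That locus as a whole had a mean 20.1 FPKM in the control group and 69.2 after exposure, a log2 difference of 1.71 with an adjusted p of 1.29e-05. Bcl2l2 and Mif4gd also share loci and are uncertain: the Bcl2l2 locus had a mean 42.5 FPKM in the control group and 51.5 after exposure, a log2 difference of 0.27 with an adjusted p of 0.219, and the Mif4gd locus a mean 15.4 FPKM in the control group and 9.19 after exposure, a log2 difference of -0.68 with an adjusted p of 0.0119. The transporter Slc47a1 (-1.82) and the neurokinin receptor Tacr3 (-1.82) fell.

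Set against 5 Gy at the same time, 20 Gy differed in 22 genes (0.123%), 21 of them higher (0.117%) and only Utp25 lower, which reversed for its most abundant transcript. The comparison shares the 20 Gy 12 h libraries with the one above. In 13 of the 22 the 20 Gy mean lay between the 5 Gy and the control mean, and in 8 it lay above both. The first kind comprised Uhrf1, Mki67, Rrm1, E2f7, Atad2, Iqgap3, Pbk, Aunip, LOC100359539, the nuclease gene Exo1, the cohesin acetyltransferase gene Esco2, the separase gene Espl1 and the condensin subunit gene Ncapd3. Uhrf1 was at 2.42, 2.3 and 1.57 FPKM after 5 Gy, 7.51, 7.49 and 5.36 FPKM after 20 Gy and 17.5, 22.2 and 21.4 FPKM in the control libraries. The difference between the doses was 1.33 on the log2 scale (SE 0.19, adjusted p = 0.0213). Mki67, the Ki-67 proliferation antigen, was at 3.05, 3.82 and 2.82 FPKM after 5 Gy and 8.23, 9.04 and 7.62 FPKM after 20 Gy (log2 difference 1.14, adjusted p = 0.0318), with 12.7, 12.4 and 13.1 FPKM in the control libraries. Rrm1 was at 19.5, 19.1 and 15.7 and 34.4, 37.8 and 28.5 FPKM (log2 difference 0.85, adjusted p = 0.0213). The atypical repressor gene E2f7 was near 0 after 5 Gy at 0.043, 0.223 and 0.211 FPKM and at 1.47, 1.36 and 1.41 FPKM after 20 Gy (log2 difference 1.06, adjusted p = 0.00435). In each of these genes the lower dose had the lower level, without overlap.

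Over whole lists, the replication genes had a median log2 difference of 0.51 between 20 Gy and 5 Gy, 33 of 34 members were above 0, and in 28 all 20 Gy libraries lay above all 5 Gy libraries, against 6.39% of all genes, although 2 members passed the test (Rrm1 and Uhrf1). For the G2/M genes the median was 0.32, with 9 of 38 wholly above and 1 passing (Mki67). The cholesterol list had a median of -0.02 between the doses, with 1 of 24 members wholly below the 5 Gy libraries (6.43% of all genes) and none passing in limma. Of the 16 p53 arrest genes, 2 passed and the median was 0.30. In 13 the difference was above 0. In 10 all 20 Gy libraries lay above all 5 Gy libraries, against 6.39% of all genes, and none lay wholly below. Gdf15 was at 20.4, 19.2 and 26.4 FPKM after 5 Gy and 41.3, 48.1 and 39.5 FPKM after 20 Gy (log2 difference 0.94, adjusted p = 0.0243), and Btg2 at 15.7, 13.97 and 9.92 and 28.7, 29.2 and 22.9 FPKM (log2 difference 0.99, adjusted p = 0.033). Cdkn1a was at 189, 171 and 410.2 FPKM after 5 Gy, with the third library far above the other 2. Every 20 Gy library was higher, but the log2 difference of 1.40 did not pass (adjusted p = 0.155). The pro-death genes Fas (0.01), Bax (0.00) and Eda2r (-0.19) did not pass either. The count of 22 depended on the setting, with 2 genes when only these 2 groups were fitted, and from 5 to 29 when 1 library was left out.

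**Figure D5:**
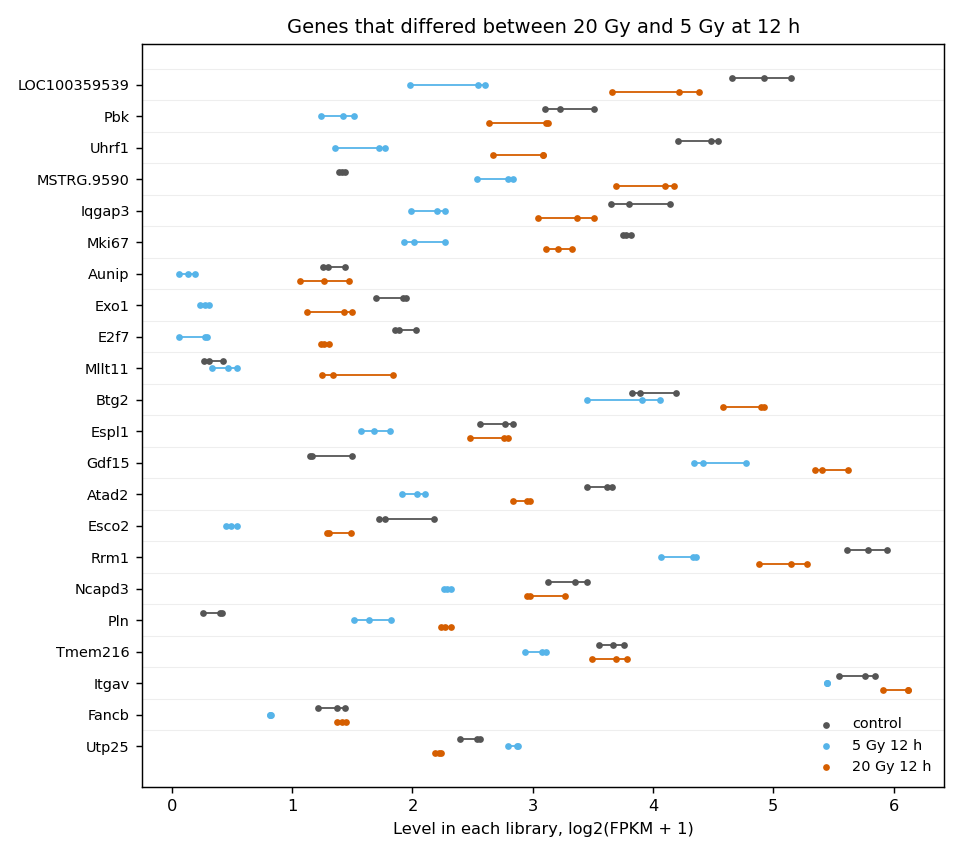
Levels in log2(FPKM + 1) of the 22 genes that differed between 20 Gy and 5 Gy at 12 h, with 1 point per library and a line from the lowest to the highest of 3 libraries, for control (grey), 5 Gy (light blue) and 20 Gy (orange). For Uhrf1, Mki67 and Rrm1 the 5 Gy levels are the lowest of the 3 groups, and for Gdf15 and Pln the 20 Gy levels are the highest.

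From 12 h to 24 h after 20 Gy, 6489 genes (36.3%) changed, 2526 upward (14.1%) and 3963 downward (22.1%), a comparison that also shares the 20 Gy 12 h libraries. All control libraries are labelled 12 h, so time after exposure and time in culture cannot be told apart at 24 h. Of the 876 genes higher at 12 h, 114 rose further by 24 h, 355 fell and 407 made no call. Of the 652 lower at 12 h, 207 fell further, 96 rose and 349 made no call. Among the p53 targets, Btg2 went on to 157, 177 and 196 FPKM and Plk2 to 88.3, 112 and 127 FPKM at 24 h, while Cdkn1a was at 638, 524 and 759 FPKM (log2 difference 24 h minus 12 h 0.01, adjusted p = 0.985). The heat shock list, without a call at 12 h, had a median change of 1.70 with 19 of 23 members rising. Immediate early genes reversed in part, with 14 of 27 rising. Fos went from 5.32, 2.85 and 2.09 to 164, 163 and 200.1 FPKM and Nr4a1 from 8.08, 5.71 and 4.66 to 993, 542 and 669 FPKM, whereas Egr3 was at 0.084, 0.089 and 0.363 FPKM. Cholesterol genes fell further in 19 of 24 members, and G2/M genes in 32 of 38, with Cdc20 at 2.53, 3.48 and 3.55 FPKM. Replication genes had a median change of -0.39, with 13 of 34 falling and 3 rising.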

How the data were processed

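Poly-A RNA of 3 control and 3 libraries collected 12 h after 20 Gy was compared, within a fit over all 15 libraries of 5 groups. The authors mapped reads to Rnor_6.0 with HISAT2 (version 2.0.13), assembled transcripts with StringTie (version 1.3.5), and deposited FPKM values per transcript, which were used without rescaling. Counts were not analysed here. FPKM was summed per gene name over 85322 transcripts. Unnamed transcripts joined the gene of their locus where it had a single name, and 4738 at loci with several names were left out. Genes with a mean of at least 0.5 FPKM were tested on log2(FPKM + 1) with limma 3.58.1 in R 4.3.3 (group means, variance trend, 10 residual degrees of freedom, two-sided, Benjamini-Hochberg). A call needed an adjusted p below 0.05 and a 1.5-fold change.

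Depth was estimated from steps between low FPKM values of short transcripts, of which 68.8% to 72.6% in these 6 libraries were whole multiples (within 0.05) of the step chosen, against about 9.8% for other steps. Intervals from counts were not possible.

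In simulated data for the comparison with control (17895 genes, 200 changed), limma called 83.0% of genes with a log2 change of 1. It called 97.0% with a log2 change of 2, with 0 wrong signs and 5 unchanged genes called. The changed genes were drawn only from genes with a control level well above the minimum tested. Noise was normal and independent between libraries, and the other groups had the control mean. The rates therefore do not cover genes near 0.5 FPKM or noise shared between libraries.

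The 15 largest rises and 15 largest falls among called genes with a symbol, a mean of at least 2 FPKM and no overlap are named, with genes called between doses, genes the study names, and members of 33 gene lists, except some genes not reported here. Members and lists were chosen with earlier results of these data known. Promoters came from RefSeq (GRCr8). The alternatives were a pseudocount of 0.1, other filters and scalings, other fits and thresholds, a single transcript per gene, the replicate number as a block, and leaving out each library. Summing only annotated transcripts and summing whole loci were chosen after seeing the data.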

Additional observations from a re-analysis of the deposited data

Results flagged for a closer look

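A group of genes changed from 12 h to 24 h after 20 Gy in the direction opposite to their change at 12 h, by a direct test of the 2 times. On the log2 scale, 24 h minus 12 h, the changes were 6.67 for Nr4a1, 5.38 for Fos, 3.89 for Ccn1, 1.92 for Hmox1 and -3.24 for Lbh. The first 4 were below the control libraries at 12 h and Lbh above them. Lbh was at 33.5, 26.8 and 28.4 FPKM in the control libraries, 49.3, 49.01 and 47.3 FPKM at 12 h and 3.07, 3.77 and 6.41 FPKM at 24 h, and its call at 12 h was lost in 5 of 6 fits that left out a library.

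The other results singled out are the genes that differed between 20 Gy and 5 Gy at 12 h, by a direct test of the 2 doses. On the log2 scale, 20 Gy minus 5 Gy, the differences were LOC100359539 (1.71), Pbk (1.56), Uhrf1 (1.33), Iqgap3 (1.15), Mki67 (1.14), Aunip (1.14), Exo1 (1.08), E2f7 (1.06), Espl1 (0.99), Atad2 (0.90), Esco2 (0.87), Rrm1 (0.85) and Ncapd3 (0.77) among the genes whose 20 Gy mean lay between the 5 Gy and control means. They were MSTRG.9590 (1.27), Mllt11 (1.03), Btg2 (0.99), Gdf15 (0.94), Pln (0.62), Tmem216 (0.62), Itgav (0.60) and Fancb (0.59) among those above both, and -0.63 for Utp25. LOC100359539 was at 4.85, 5.09 and 2.95 FPKM after 5 Gy, 17.6, 19.8 and 11.6 FPKM after 20 Gy and 24.2, 29.4 and 34.4 FPKM in the control libraries. MSTRG.9590, an assembled locus without a gene name, was at 1.67, 1.62 and 1.71 FPKM in the control libraries, 5.93, 4.79 and 6.12 FPKM after 5 Gy and 17.04, 16.1 and 11.9 FPKM after 20 Gy. Mllt11 shares a locus with Gabpb2, and its difference did not hold for the whole locus.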

How the results depend on the processing

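The comparison with control gave 1528 genes. Summing only annotated transcripts gave 635 genes (348 higher, 287 lower), a fold change of at least 2 gave 433 (234 and 199), and no fold limit gave 3055 (1705 and 1350). Leaving out 1 library gave 1235 to 1526 genes, 711 to 867 higher and 524 to 659 lower, the lowest without the third 20 Gy 12 h library. The 22 genes between doses became 6 with annotated transcripts, 2 with only these groups fitted, 12 with a pseudocount of 0.1, 48 with quantile normalization, 9 with the most abundant transcript, 361 without adjustment, 10 with a fold change of at least 2, and 5 to 29 without 1 library. The change from 12 h to 24 h, 6489 genes, became 2830 with annotated transcripts, 2817 with a fold change of at least 2 and 9816 with no fold limit.

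Single genes changed sign where 1 transcript or locus was read differently, on the log2 scale. With annotated transcripts only, they were Acaca (0.11), Aldh1l1 (-0.64), Cdt1 (0.36), Ei24 (-0.86), Msmo1 (0.78), Nr1d1 (0.72), Per1 (3.12), Pidd1 (-0.77) and Rbm3 (1.93). With the most abundant transcript, they were Abcb4 (-0.67), Brca2 (-0.89), Calcrl (-0.077), Msmo1 (0.78), Per1 (2.14), Plaur (-1.998), Rbm3 (1.69), Tpi1 (-3.39) and, between doses, Utp25 (0.60). With whole loci, they were Ftl1 (-0.88) and, between doses, Mllt11 (-0.16). In limma, the adjusted p of the changed sign was below 0.05 for Per1 under both readings. The same held for Brca2, Plaur and Tpi1 with the most abundant transcript, and for no other gene here. The cause of these sign changes was not tested. Of 190 named genes that were called, 142 kept the call whichever library was left out.

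No label says whether the replicate numbers pair the samples. Deviations of same-numbered libraries from 20 Gy 12 h correlated at -0.09, 0.0042 and -0.18 with control and 0.16, 0.045 and 0.23 with 5 Gy 12 h. With 20 Gy 24 h the values were -0.098, 0.021 and 0.024. Each 20 Gy 12 h library correlated best with its own number in the 5 Gy 12 h group, a hint from the data and not the design. With the replicate block, 1495 genes passed against control, 16 between doses and 6460 over time. FPKM carries no counts, so no counting error was available, and genes near the minimum of 0.5 FPKM are the least certain.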

Other observations

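Clock genes moved in both directions 12 h after 20 Gy. Of 18 tested, Per2 (0.73) and Dbp (0.75) rose and Ciart (-1.55), Npas2 (-0.91), Nr1d1 (-0.70), Arntl (-0.70) and Per1 (-0.62) fell, by log2 difference. Over all genes 4.90% rose and 3.64% fell. Wholly above the controls lay 5 of the 18 and wholly below them 6, against 19.8% and 17.0% of all genes. Per2 lost its call whichever library was left out and Nr1d1 in 5 of 6 such fits. Ciart, a repressor of the clock, was at 7.82, 7.03 and 8.81 FPKM in the control libraries and 1.58, 2.01 and 2.58 FPKM after 20 Gy, without overlap (adjusted p = 4.56e-05, limma). When only annotated transcripts were summed, Per1 changed sign to 3.12 (adjusted p = 0.000208, limma) and Nr1d1 to 0.72 (adjusted p = 0.383, limma). The most abundant transcript of Per1 also had a positive difference, at 2.14 (adjusted p = 0.00818, limma). The direction of Per1 therefore depended on the transcripts read.

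Of 21 glycolysis and hypoxia genes, hexokinase 2 (Hk2, -0.95) and the platelet phosphofructokinase (Pfkp, -1.10) fell and none rose. Over all genes 3.64% fell and 4.90% rose, and the list had a median log2 difference of -0.23. Hk2 lost its call in 4 of 6 fits that left out a library, and none fell when only annotated transcripts were summed. None of 11 transcripts of the mitochondrial genome passed in limma, and 1 had an unadjusted p below 0.05, against 29.9% of all genes. Among genes used as cell type markers, the Notch receptor gene Notch3 was at 0.183, 0.146 and 0.129 FPKM in the control libraries and 1.67, 1.78 and 1.9 FPKM after 20 Gy (log2 difference 1.27), and the smooth muscle myosin gene Myh11 rose by 0.78. The other 4 mural markers tested lay wholly below the controls, against 17.0% of all genes, and the list median was -0.23. The collagen gene Col1a1 was at 535, 546 and 467 and 333, 320.5 and 297 FPKM (log2 difference -0.70), a call lost without the third 20 Gy 12 h or the second control library, and decorin (Dcn) was at 192, 174 and 219.9 and 126, 108 and 100 FPKM (log2 difference -0.81). Slc2a1, the glucose transporter of the barrier, was at 19.8, 25.2 and 25.7 and 15.7, 13.6 and 12.4 FPKM (log2 difference -0.72), the only endothelial marker to pass.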
